A study of Mus musculus with 48 samples.

Results

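The integrated stress response and amino acid genes described here are 36 genes picked by name. The rule used no measured value, but the genes were picked with earlier results of these data known. All 36 were found by symbol among the 47561 genes of the deposited table, and 35 of them passed the filter on low values in each comparison of hyperoxia. The genes were ordered by role as 9 regulators and feedback genes around ATF4, 3 secreted or surface targets, 4 genes of asparagine, proline and cysteine synthesis, 5 genes of serine and one-carbon synthesis, 3 amino acid transporter genes, and 12 genes of cytosolic aminoacyl-tRNA synthetases.

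The integrated stress response begins with kinases that sense amino acid shortage, unfolded protein, heme shortage or double-stranded RNA and phosphorylate the translation initiation factor eIF2. General protein synthesis then slows, while the mRNA of the transcription factor ATF4 is translated more. ATF4, paired with C/EBP factors, raises genes for the synthesis, uptake and tRNA charging of amino acids, as well as genes that restore translation. RNA levels show neither the phosphorylation of eIF2 nor the amount of ATF4 protein.

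Lung RNA was sequenced from 48 adult mice, 3 in each of 16 groups given by strain, sex, injection and air. The strains were C3H/hen (C3H) and C57Bl/6 (C57B), males and females are written C3HM, C3HF, C57BM and C57BF, and no mouse carried an engineered allele according to the labels. Each mouse received a single intraperitoneal injection of saline (SAL) or of 25 mg/kg aurothioglucose (ATG), a gold-containing inhibitor of thioredoxin reductase, and then spent 96 h in room air (RA) or in hyperoxia (HYP, over 95% oxygen). The series description mentions ATG for all groups, so the saline groups rest on the sample labels, and the C57B substrain is given differently by the sources. Hyperoxia of this kind is known to injure the epithelium and the capillaries of the lung.

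Expression was given as FPKM, fragments scaled to transcript length and to all mapped fragments, which allows levels of different genes to be set side by side. The sum of FPKM was between 510933 and 748290 per lung, and the number of reads behind it is unknown. Scgb1a1, the transcript of the main club cell secretory protein, took 1.20% to 30.2% of that sum. Its share was at least 10.4% in every room air lung and at most 7.17% in every hyperoxic lung. In hyperoxia it was 4.58% to 7.17% in C3H and 1.20% to 5.26% in C57B. The part of this fall in the values of other genes was not tested. C3HM SAL RA mice 1 and 3 correlated least with the other lungs of their injection and air, at 0.914 and 0.923, and leaving both out kept the count of members higher in saline hyperoxia at 30. Markers of alveolar type 2, alveolar type 1, club and endothelial cells were detected in every group.

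Many ATF4 targets carry a C/EBP-ATF response element near their start. Promoter windows (RefSeq, GRCm38.p6, 250 bases before to 50 bases after a transcript start) were given for 29 members, 33 windows in all, and were searched on both strands for TGATGCAA and for the looser TGATGNAA, which includes it. TGATGCAA lay in 30.3% of the members' windows and in 0.895% of all 32851 windows, and TGATGNAA in 39.4% against 3.97%. The stricter letters were found in 10 members: Atf3, Nupr1, Chac1, Vldlr, Fgf21, Pycr1, Aars, Tars, Iars and Yars. Stretches around the matches that lie outside annotated exons are printed below, 5′ to 3′ on the strand of the gene with the match in capitals, because these members later differ in their response: Atf3, Chac1 and Gars rose in saline and in ATG mice, Pycr1 passed the test in ATG mice, and Fgf21 stayed near 0. The capitals TTGCATCA are TGATGCAA read on the opposite strand, and Gars shows the looser form.
Atf3 (chr1:191183396-191183483, minus strand, match at -110 from the start): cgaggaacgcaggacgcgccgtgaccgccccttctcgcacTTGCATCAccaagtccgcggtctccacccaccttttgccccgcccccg
Chac1 (chr2:119351009-119351096, plus strand, match at -193): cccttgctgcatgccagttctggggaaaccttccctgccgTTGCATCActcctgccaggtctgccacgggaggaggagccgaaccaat
Fgf21 (chr7:45615582-45615669, minus strand, match at -139): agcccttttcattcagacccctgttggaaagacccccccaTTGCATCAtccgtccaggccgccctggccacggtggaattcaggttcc
Pycr1 (chr11:120643804-120643891, minus strand, match at -103): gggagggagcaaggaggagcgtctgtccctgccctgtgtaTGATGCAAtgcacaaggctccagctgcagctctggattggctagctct
Gars (chr6:55037931-55038000, plus strand, match at -30): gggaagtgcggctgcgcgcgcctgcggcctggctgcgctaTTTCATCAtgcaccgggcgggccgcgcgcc
The 250 bases before the start of Trib3, the member with the largest rise, held neither form, and its only match, of the looser form, began 15 bases after the start.
Trib3 (chr2:152344061-152344310, minus strand): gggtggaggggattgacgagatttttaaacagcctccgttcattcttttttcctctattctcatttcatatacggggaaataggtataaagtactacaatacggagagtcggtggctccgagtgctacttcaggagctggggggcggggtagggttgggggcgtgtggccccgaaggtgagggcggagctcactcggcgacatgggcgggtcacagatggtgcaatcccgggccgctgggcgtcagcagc
A match is a run of letters and not a measured binding site. Vldlr held the stricter element at -200 from a RefSeq start inside the gene, in a stretch that overlaps an annotated exon. Over both strains Vldlr did not pass the test in saline or in ATG mice. In ATG mice taken by strain it was called lower in C3H and higher in C57B. How holding the letters relates to the rise in hyperoxia was not tested.

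**Figure D1:**
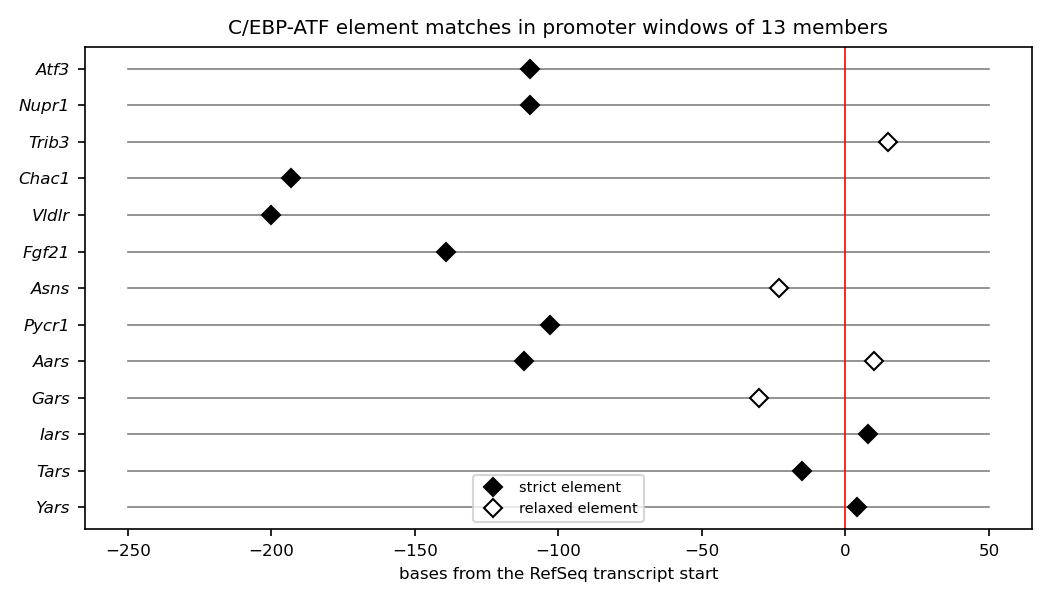
Positions of element matches in the promoter windows of the 13 members that hold one. The x axis gives the first base of the match from the RefSeq transcript start (red line), each grey line is a window of 250 bases before to 50 bases after the start, filled diamonds are the stricter element and open diamonds the looser one alone. The stricter matches of 8 members lie before the start.

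Hyperoxia raised most of these genes. In the saline mice (12 in each air), 30 of the 35 members tested were higher in hyperoxia and 0 were lower (limma, adjusted p under 0.05), where 31.8% of all 16321 genes tested were higher and 28.3% lower (60.1% in either direction). The median log2 fold change was 1.24 over the members and 0.01 over all genes. In 24 of the 35 members every hyperoxic lung was above every room air lung, which held for 5.61% of all genes, and the reverse for 2.13%. The ATG mice, none of which were among the saline mice, gave 33 of 35 members higher and 0 lower, with backgrounds of 35.8% higher and 26.0% lower (61.8% in either direction) among 16206 genes. Groups of the ATG mice did not overlap in 25 of 35 members, against 8.82% of all genes, with 4.05% apart in the reverse order. The 30 members called in saline mice were all called in ATG mice, which added Pycr1, Psph and Lars. In both sets Vldlr and Wars did not pass.

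**Figure D2:**
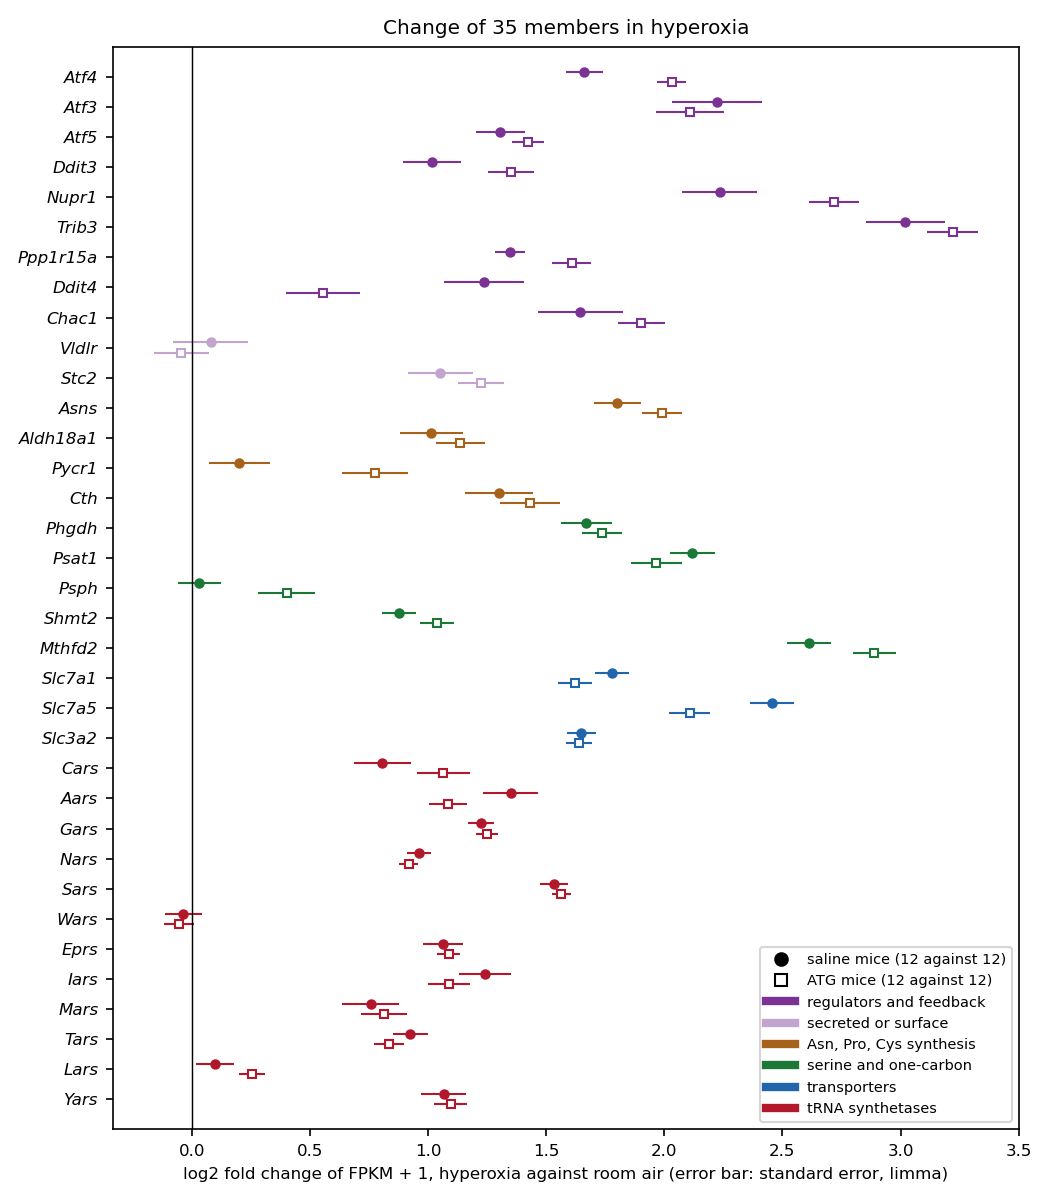
Log2 fold change of FPKM + 1 in hyperoxia against room air for 35 members, grouped by role in colour. Circles are saline mice and squares ATG mice (12 against 12 each), and bars are standard errors from limma. Trib3 and Mthfd2 lie farthest to the right, and Vldlr and Wars lie at 0 in both sets.

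Bulk lung RNA cannot tell fewer cells of a type from less RNA per cell. The background for marker counts was 31.8% of all genes higher and 28.3% lower in saline hyperoxia, and 35.8% higher and 26.0% lower in ATG hyperoxia. Summed markers moved with hyperoxia in the saline mice. The 3 club cell markers fell together, and their summed FPKM had a median of 102056 in room air and 22324 in hyperoxia. The 4 alveolar type 2 markers summed to medians of 35161 and 10434, with 3 of 4 lower and 1 higher. All 5 macrophage markers rose, from a summed median of 232 (range 138 to 481) to 891 (356 to 2217). Averaged over the strains, all 5 neutrophil markers rose too, from 274 (135 to 774) to 877 (161 to 6265). By strain, the neutrophil sum had medians of 187 and 205 in saline C3H, where the highest lungs had 312 and 6265. In saline C57B the medians were 460 and 3054. In the other lists, 4 of 5 cycling cell markers and 3 of 4 heart muscle markers were lower, as were 2 of 3 alveolar type 1 markers, while endothelial markers gave 1 higher and 1 lower of 3 and fibroblast markers 1 higher of 3. In ATG mice the same 3 club markers fell, and 3 of 5 macrophage and 4 of 5 neutrophil markers rose when averaged over the strains. The median of the neutrophil sum went from 143 to 753 in ATG C3H, but from 923 to 385 in ATG C57B. The part of these shifts in the members' rise was not tested.

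Among the regulators, all 9 members rose in saline mice and all 9 in ATG mice. Atf4 (chr15:80255184-80257541), the transcription factor at the centre of the response, had a lowest, median and highest FPKM of 77.0, 107 and 131 in saline room air and of 273, 319 and 458 in saline hyperoxia. In ATG mice these values were 77.5, 102 and 132 in room air and 328, 425 and 555 in hyperoxia. No hyperoxic lung reached down to a room air lung in either set, and the log2 fold changes were 1.66 ± 0.08 (SE, adjusted p 8.77e-13) and 2.03 ± 0.06 (adjusted p 8.47e-16). Trib3 (chr2:152337422-152344032), a pseudokinase that feeds back on ATF4, was low in room air, with 2.17, 2.63 and 3.61 FPKM in saline mice. In saline hyperoxia it measured 9.54, 28.7 and 63.0 FPKM, and in ATG mice it went from 2.54, 3.39 and 5.09 to 21.0, 39.2 and 74.4. All hyperoxic lungs lay above all room air lungs, and the log2 fold changes of 3.02 ± 0.17 and 3.22 ± 0.11 were the largest of the members in each set. The transcription cofactor gene Nupr1 was the most abundant member in hyperoxia, with medians of 144 FPKM in saline room air and 630 in saline hyperoxia, where 11 of 12 hyperoxic lungs exceeded all room air lungs. Its log2 fold change was 2.23 ± 0.16 in saline mice and 2.72 ± 0.10 in ATG mice.

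Atf3, a stress-induced factor of the same family as ATF4, had medians of 8.04 and 42.6 FPKM in saline mice, and Atf5, another such factor, 68.8 and 168. Neither overlapped between airs in either set, and their log2 fold changes in saline mice were 2.22 ± 0.19 and 1.31 ± 0.10. Ddit3, which encodes the pro-apoptotic factor CHOP, went from 13.3, 24.2 and 27.7 FPKM to 28.9, 47.3 and 71.8 in saline mice. The lowest hyperoxic lung was just above the highest room air lung, with a log2 fold change of 1.01 ± 0.12 that was 1.35 ± 0.10 in ATG mice. Exons of Ddit3 and Mars overlap on opposite strands, and the use of strand in counting is not stated, so reads of the 2 genes may not be fully apart. The same limit holds for Atf5, Ppp1r15a, Psph, Shmt2, Cars, Aars and Yars, whose exons overlap other genes on the opposite strand. Ppp1r15a, the regulatory subunit that brings a phosphatase to eIF2 and so restores translation, had medians of 22.0 and 60.5 FPKM in saline mice and 20.0 and 59.8 in ATG mice, with no overlap. Chac1, which degrades glutathione, had medians of 2.42 and 8.03 FPKM in saline mice and 2.40 and 12.0 in ATG mice, also with no overlap. Its log2 fold changes were 1.64 ± 0.18 and 1.90 ± 0.10. Ddit4, an inhibitor of mTORC1, overlapped more than the other regulators. It measured 7.78, 13.3 and 24.9 FPKM in saline room air and 19.3, 26.9 and 68.8 in saline hyperoxia, and in ATG mice 11.5, 21.1 and 36.2 against 18.0, 30.8 and 46.4. Only 8 of 12 saline and 3 of 12 ATG hyperoxic lungs lay above all room air lungs of their set, with log2 fold changes of 1.24 ± 0.17 and 0.55 ± 0.16 (adjusted p 0.00434 in ATG mice).

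**Figure D3:**
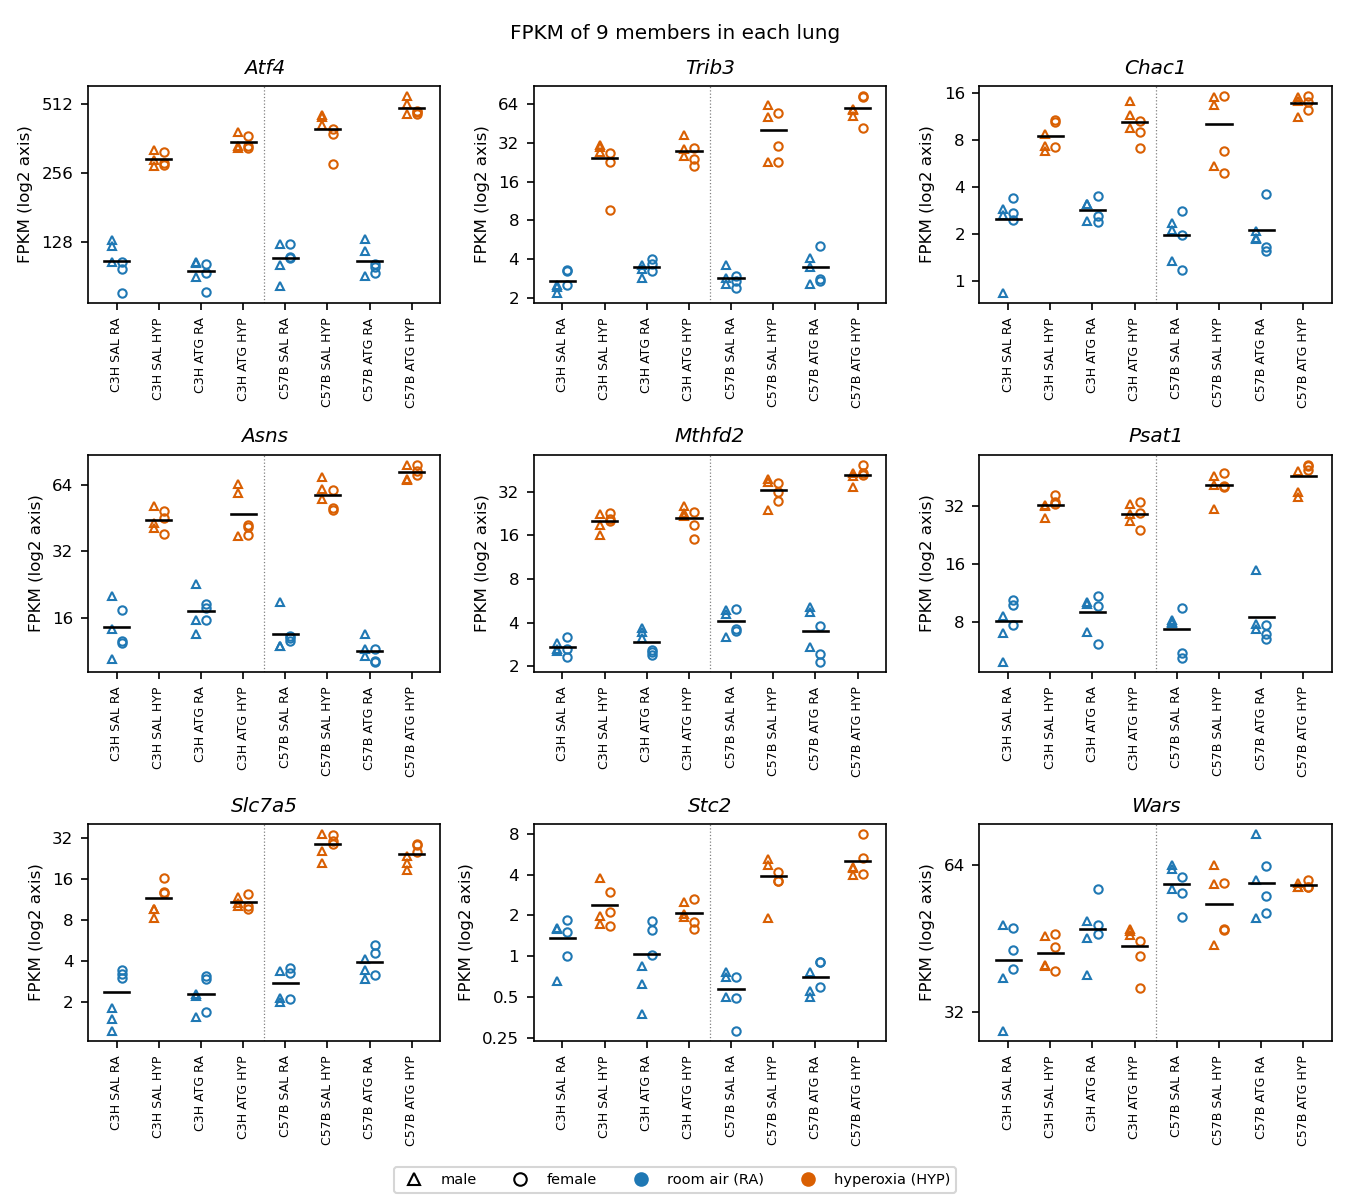
FPKM of 9 members in each of the 48 lungs, on log2 axes, by strain, injection and air (6 lungs each). Triangles are males, circles females, blue room air and orange hyperoxia, and black bars are group means. Room air and hyperoxic lungs are apart for Atf4, Trib3, Chac1, Asns, Mthfd2, Psat1 and Slc7a5, the highest Slc7a5 values lie in saline C57B and the highest Asns values in ATG C57B, and Wars shows no separation by air.

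The secreted or surface targets split. Stc2, a secreted glycoprotein, was low in saline room air at 0.280, 0.733 and 1.84 FPKM and reached 1.66, 3.28 and 5.25 in saline hyperoxia. Of 12 hyperoxic lungs, 10 were above all room air lungs in either set, and the log2 fold changes were 1.05 ± 0.14 and 1.22 ± 0.10. Vldlr, a receptor for lipoproteins, had medians of 7.39 and 6.69 FPKM in saline mice and 7.24 and 6.48 in ATG mice. Its log2 fold changes were 0.08 ± 0.16 (adjusted p 0.690) and -0.05 ± 0.12 (adjusted p 0.754), which do not pass and do not show that the level stayed the same. Fgf21, a hormone of the starvation response, was under the filter and was not tested in these comparisons. It was listed at 0 in all 12 saline room air lungs and reached at most 1.41 FPKM in saline hyperoxia, where 11 of 12 lungs were above 0. In ATG mice the highest room air value was 0.209 FPKM and 9 of 12 hyperoxic lungs exceeded it, with a highest value of 1.37. No fold was computed against the group listed at 0.

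For the synthesis of asparagine, proline and cysteine, 3 of 4 members rose in saline mice and 4 of 4 in ATG mice. Asns (chr6:7675169-7693254), asparagine synthetase, had 10.4, 12.8 and 20.0 FPKM in saline room air and 38.3, 49.6 and 69.8 in saline hyperoxia. In ATG mice it had 10.0, 13.4 and 22.7 against 37.5, 65.7 and 78.9 FPKM. The airs were fully apart in both sets, with log2 fold changes of 1.80 ± 0.10 and 1.99 ± 0.09. Cth, which makes cysteine from cystathionine, went from a median of 3.37 to 8.30 FPKM without overlap in saline mice (log2 fold change 1.30 ± 0.14), and in ATG mice 11 of 12 hyperoxic lungs cleared all room air lungs. In proline synthesis, Aldh18a1, the enzyme of its first steps, rose with medians of 4.06 and 8.11 FPKM (log2 fold change 1.01 ± 0.13). The enzyme of the last step of proline synthesis, Pycr1, had 0.957, 1.88 and 2.87 FPKM in saline room air and 1.07, 2.02 and 5.41 in saline hyperoxia, and did not pass (0.20 ± 0.13, adjusted p 0.182). In ATG mice Pycr1 had 0.707, 1.48 and 3.26 FPKM in room air and 1.86, 3.12 and 6.76 in hyperoxia, and passed at 0.77 ± 0.14 (adjusted p 7.13e-05). With quantile normalization Pycr1 also passed in saline mice, at 0.32 (adjusted p 0.0209).

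In the serine and one-carbon group 4 of 5 members rose in saline mice and 5 of 5 in ATG mice. Mthfd2 (chr6:83305691-83325908), a mitochondrial enzyme of folate metabolism that is low in most adult tissues, had 2.31, 3.19 and 4.98 FPKM in saline room air and 16.2, 23.4 and 39.1 in saline hyperoxia. In ATG mice it had 2.14, 2.91 and 5.13 against 15.1, 29.9 and 49.04 FPKM. Its mean was 7.75 times higher in hyperoxia in saline mice and 9.81 times in ATG mice, and the log2 fold changes were 2.61 ± 0.09 (adjusted p 3.33e-14) and 2.89 ± 0.09. Phgdh and Psat1 encode the first 2 enzymes of serine synthesis from a glycolytic intermediate. Psat1 had medians of 7.97 and 35.0 FPKM in saline mice and 7.74 and 34.4 in ATG mice, and Phgdh 4.49 and 15.0 in saline mice and 4.40 and 20.7 in ATG mice, with no overlap of airs. The log2 fold changes in saline mice were 2.12 ± 0.10 for Psat1 and 1.67 ± 0.11 for Phgdh. Phgdh has 56.3% of its 30-base words also in other transcripts, so its reads could have been divided between copies and its level is uncertain. The last enzyme of the pathway, Psph, had medians of 8.20 and 8.14 FPKM in saline mice (log2 fold change 0.03 ± 0.09, adjusted p 0.792) and of 7.23 and 9.54 in ATG mice (0.40 ± 0.12, adjusted p 0.00721). Shmt2, which moves the one-carbon unit of serine onto folate in mitochondria, rose less than Mthfd2 but without overlap, at 0.88 ± 0.07 and 1.04 ± 0.07.

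The 3 transporter genes rose in both sets with no overlap of airs. Slc7a5 and Slc3a2 encode the light and heavy chains of LAT1, an exchanger of large neutral amino acids, and Slc7a1 encodes a carrier of cationic amino acids. Slc7a5 (chr8:121881150-121907694) had 1.23, 2.56 and 3.54 FPKM in saline room air and 8.25, 18.5 and 34.0 in saline hyperoxia, a log2 fold change of 2.46 ± 0.09. In ATG mice it had 1.55, 3.04 and 5.23 against 9.53, 15.5 and 28.7 FPKM, a log2 fold change of 2.11 ± 0.09. Its partner Slc3a2 was far more abundant in FPKM, with medians of 117 and 351 FPKM in saline mice and 123 and 394 in ATG mice. Slc7a1 had medians of 2.64 and 12.6 FPKM in saline mice and 3.00 and 11.1 in ATG mice, with log2 fold changes of 1.78 ± 0.07 and 1.62 ± 0.07.

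Aminoacyl-tRNA synthetases join each amino acid to its tRNA. Of the 12 cytosolic ones chosen, 10 rose in saline mice and 11 in ATG mice. The median log2 fold change of the group was 1.01 in saline mice and 1.07 in ATG mice, and the highest in saline mice was that of Sars at 1.53 ± 0.06. Sars, for serine, had 36.0, 41.4 and 51.1 FPKM in saline room air and 99.4, 121 and 151 in saline hyperoxia. Gars, for glycine, had 23.1, 30.8 and 35.0 against 52.7, 73.3 and 95.8 FPKM, a log2 fold change of 1.22 ± 0.05. Both were fully apart between airs in saline and in ATG mice. In saline mice, Aars (1.35 ± 0.12), Iars (1.24 ± 0.11), Yars (1.07 ± 0.10), Eprs (1.06 ± 0.09), Nars (0.96 ± 0.05) and Tars (0.92 ± 0.07) also rose without overlap, as log2 fold changes. Aars and Iars hold 14.0% and 15.3% of such shared 30-base words, and Aars overlaps Exosc6 on the same strand. Cars and Mars rose with some overlap in saline mice, at 0.81 ± 0.12 and 0.76 ± 0.12.

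Wars and Lars, for tryptophan and leucine, set the lower end of this group. Wars had 29.3, 49.2 and 63.9 FPKM in saline room air and 38.8, 46.0 and 63.8 in saline hyperoxia, and its log2 fold changes were -0.04 ± 0.08 in saline mice and -0.06 ± 0.06 in ATG mice. Tryptophanyl-tRNA synthetase is also known as an interferon-induced gene. The call for Wars depended on scaling, since quantile normalization gave -0.19 in saline mice (adjusted p 0.0298) and -0.24 in ATG mice (adjusted p 0.00390), both called lower. Lars had medians of 11.2 and 13.1 FPKM in saline mice (0.10 ± 0.08, adjusted p 0.312) and of 11.2 and 13.5 in ATG mice (0.25 ± 0.06, adjusted p 5.01e-04).

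**Figure D4:**
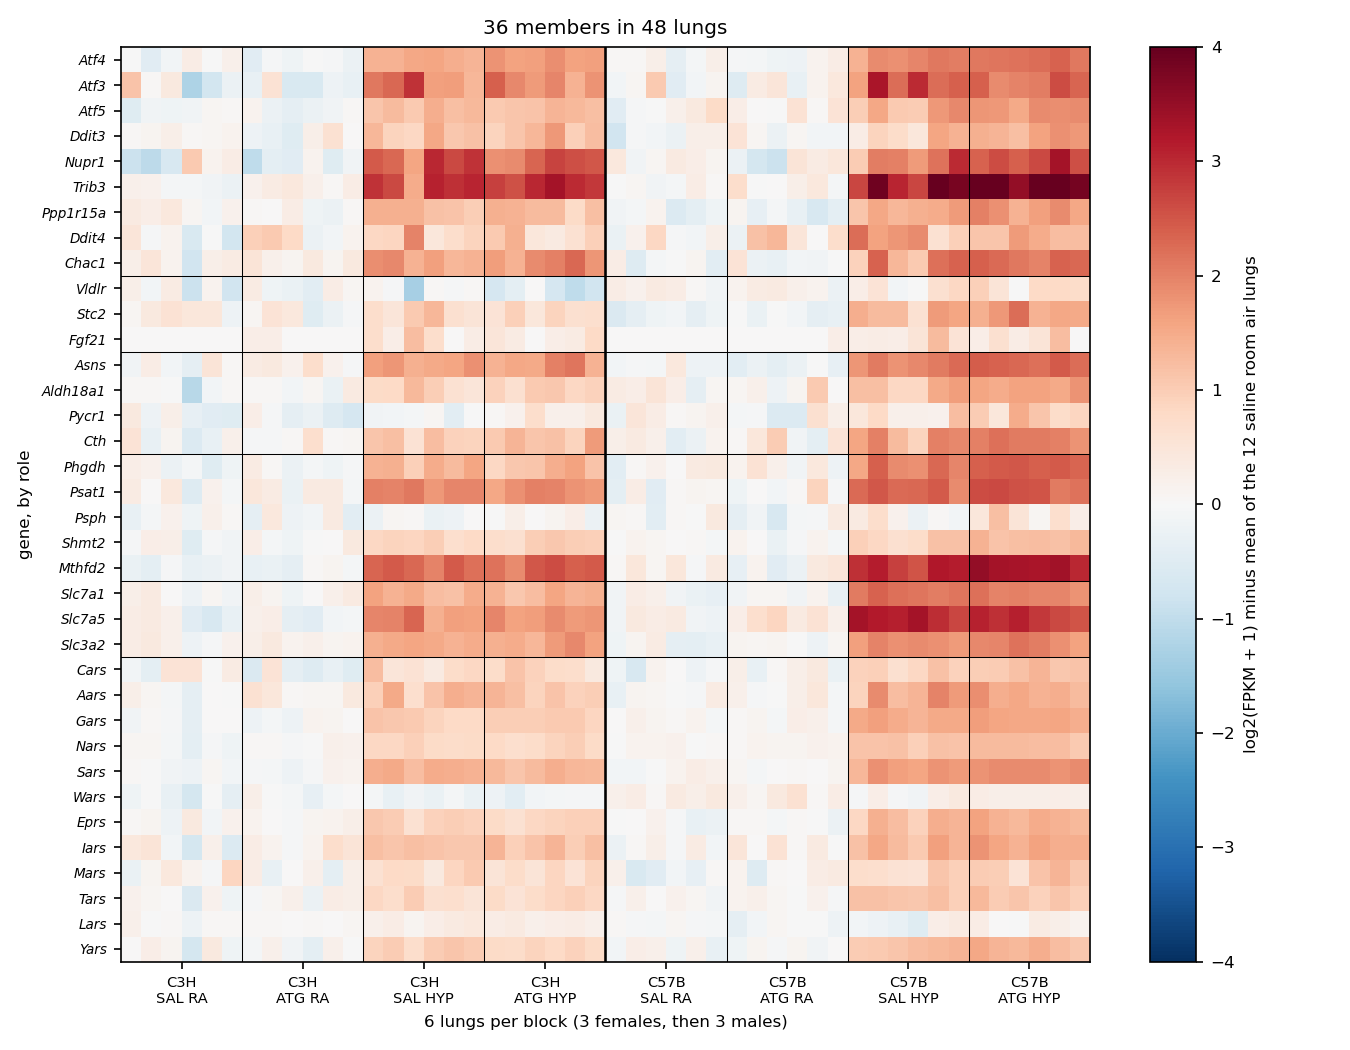
Log2(FPKM + 1) of the 36 members (rows, by role) in the 48 lungs (columns, in blocks of 6 by strain, injection and air), as the difference from the mean of the 12 saline room air lungs. Red is higher and blue lower. The 24 hyperoxic lungs are red across most rows, with Trib3, Mthfd2 and Slc7a5 among the deepest in C57B, and the rows of Vldlr, Psph, Wars and Lars stay pale.

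Other genes of the pathway were described by lists that share no member with the 36. Their background was 31.8% of all genes higher and 28.3% lower in saline hyperoxia, and 35.8% higher and 26.0% lower in ATG hyperoxia. Of 12 genes for the eIF2 kinases, eIF2, eIF2B and their partners, 8 were higher and 0 lower in saline hyperoxia, and 7 higher and 1 lower in ATG hyperoxia. The largest rises in saline mice were those of Eif2b3 (1.27 ± 0.10), Eif2s1 (1.22 ± 0.09) and Eif2b2 (0.81 ± 0.10). The 4 kinase genes had log2 fold changes between -0.14 and 0.23 in saline mice, and Eif2ak1, the heme-regulated kinase, was the only 1 of them called, at 0.23 ± 0.07 in saline mice, while Eif2ak3, the kinase of the endoplasmic reticulum, was called lower in ATG mice at -0.24 ± 0.08. Of 22 further genes of the stress and amino acid response, 18 were higher and 1 lower in saline mice, led by Gdf15 (5.47 ± 0.14), a secreted stress cytokine, Slc7a11 (2.37 ± 0.15), the cystine importer, and Sesn2 (1.83 ± 0.09), a stress-induced inhibitor of mTORC1. The gene called lower was Slc1a4 (-0.25 ± 0.09), a neutral amino acid transporter. In ATG mice 19 of 21 tested were higher and 0 lower.

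All 8 other cytosolic synthetase genes rose in both sets, with median log2 fold changes of 0.53 and 0.76, where the 12 members had 1.01 and 1.07. The difference between the lists was not tested. Of 17 mitochondrial synthetase genes, 8 were higher and 2 lower in saline mice, where 31.8% of all genes were higher and 28.3% lower. In ATG mice 11 of the 17 were higher and 2 lower, where 35.8% of all genes were higher and 26.0% lower. The 2 lower genes in both sets were Cars2 (-0.77 ± 0.11 in saline mice) and Lars2 (-0.60 ± 0.13), whereas Nars2 (0.80 ± 0.15) and Yars2 (0.79 ± 0.13) had the largest rises.

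The rise in hyperoxia was smaller in C3H than in C57B for several members. The difference between the strains was tested as the log2 fold change of hyperoxia in C3H minus that in C57B, 6 lungs against 6 in each strain. In saline mice 6 members were lower in C3H by this measure and 0 were higher, where 2.81% of all genes were lower and 8.71% higher. Each strain taken alone still called the same 30 members higher in saline hyperoxia, so the difference lay in the size of the rise. The median difference was -0.29 over the members and 0.15 over all genes. Median ratio scaling, which brought that shift of all genes to 0.00, called 12 members lower. The share of all genes called lower with that scaling was not computed. Leaving out C3HM SAL RA mice 1 and 3 left 1 mouse in that group, so its count is not compared here.

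The 3 transporter genes were among the 6. Slc7a5 in saline C3H went from 1.23, 2.40 and 3.43 FPKM in room air to 8.25, 11.1 and 16.2 in hyperoxia. In saline C57B it went from 2.00, 2.69 and 3.54 to 20.8, 29.5 and 34.0. The strains overlapped in room air and were fully apart in hyperoxia, and the difference of the rise was -1.09 ± 0.19 (adjusted p 0.00116). Slc7a1 behaved alike, with hyperoxic values of 7.56, 9.21 and 10.5 FPKM in C3H and 14.7, 15.6 and 18.4 in C57B and a difference of -0.89 ± 0.14 (adjusted p 7.15e-04). For Slc3a2 the hyperoxic values were 301, 326 and 343 FPKM in C3H and 360, 408 and 459 in C57B, and the difference was -0.60 ± 0.12 (adjusted p 0.00478). Gars also was apart between strains in hyperoxia, at 52.7, 60.4 and 67.3 against 79.4, 87.6 and 95.8 FPKM, with a difference of -0.40 ± 0.11 (adjusted p 0.0219).

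Stc2 and Ppp1r15a completed the 6, and in room air their strain medians were higher in C3H, with overlapping ranges. That difference passed over all 12 saline room air lungs but was lost for both genes without C3HM SAL RA mice 1 and 3 and in most fits that left out 1 mouse. Stc2 in saline C3H had 0.653, 1.56 and 1.84 FPKM in room air and 1.66, 2.06 and 3.75 in hyperoxia. In saline C57B it had 0.280, 0.603 and 0.760 in room air and 1.92, 3.89 and 5.25 in hyperoxia. The order of the strain medians therefore turned, and the difference of the rise was -1.10 ± 0.27 (adjusted p 0.0140). Ppp1r15a had medians of 25.6 and 55.5 FPKM in C3H and 19.5 and 61.9 in C57B, with overlap of the strains in both airs and a difference of -0.55 ± 0.13 (adjusted p 0.00913). Nupr1 lay on the other side, with log2 fold changes of 2.66 in C3H and 1.81 in C57B and a difference of 0.85 ± 0.31 that did not pass (adjusted p 0.0815), though it passed at 0.0293 when all 48 mice were fitted together.

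The ATG mice were a separate set of 24 in which the same strain difference could be measured. There 18 members were lower in C3H and 0 higher, where 5.04% of all genes were lower and 8.27% higher. The median difference was -0.50 over the members and 0.05 over all genes. Ppp1r15a, Stc2, Slc7a1, Slc3a2 and Gars were called in both sets, which is 83.3% of the 6 in saline mice and 27.8% of the 18 in ATG mice. The same overlap over all genes was not computed. Whether the strain difference itself differed between saline and ATG mice was not tested. With each strain of the ATG mice taken alone in limma, Ddit4 and Psph were called higher in C57B but not in C3H. Their log2 fold changes in ATG C3H were 0.38 ± 0.22 (adjusted p 0.172) and 0.11 ± 0.17 (adjusted p 0.619).

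Asns gave the largest of these differences. In ATG C3H it had 13.4, 16.6 and 22.7 FPKM in room air and 37.5, 41.7 and 64.3 in hyperoxia. In ATG C57B it had 10.0, 11.1 and 13.5 in room air and 67.2, 72.3 and 78.9 in hyperoxia. The C57B lungs were lower in room air apart from a slight overlap and higher than all C3H lungs in hyperoxia, with a difference of -1.21 ± 0.17 (adjusted p 1.24e-04). Trib3 reached 21.0, 27.1 and 36.9 FPKM in hyperoxic ATG C3H and 41.5, 58.2 and 74.4 in hyperoxic ATG C57B, while the strains overlapped in room air. Its difference was -1.10 ± 0.22 (adjusted p 0.00214). Stc2 again had a difference over 1 log2 unit, at -1.17 ± 0.20 (adjusted p 6.14e-04).

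In serine and one-carbon synthesis, 4 of 5 members differed in the ATG mice. The background for the counts of members here was 5.04% of all genes lower in C3H and 8.27% higher. Phgdh had hyperoxic values of 8.49, 10.8 and 15.4 FPKM in C3H and 25.9, 27.8 and 29.1 in C57B, a difference of -1.02 ± 0.17 (adjusted p 5.23e-04). Mthfd2 had 15.1, 22.2 and 25.5 against 34.3, 42.4 and 49.04 FPKM, a difference of -0.82 ± 0.18 (adjusted p 0.00497). Psat1 (-0.72 ± 0.21) and Shmt2 (-0.44 ± 0.14) passed with adjusted p-values of 0.0307 and 0.0456, and both calls were lost when any of several single mice was left out. Among the synthetases 6 of 12 differed, from Nars at -0.37 ± 0.08 to Eprs at -0.71 ± 0.10 (adjusted p 9.99e-05), with Sars, Gars, Aars and Yars between them. Eprs reached 24.5, 29.3 and 31.1 FPKM in hyperoxic ATG C3H and 39.4, 42.4 and 49.3 in hyperoxic ATG C57B, with no overlap.

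Vldlr differed in direction. In ATG C3H it had 4.63, 6.32 and 8.40 FPKM in room air and 2.71, 3.68 and 6.64 in hyperoxia, a log2 fold change of -0.56 ± 0.16 that was called lower. In ATG C57B it had 5.42, 7.40 and 8.57 against 6.32, 11.7 and 13.6 FPKM, a log2 fold change of 0.47 ± 0.16 that was called higher. The difference was -1.03 ± 0.23 (adjusted p 0.00561), and in saline mice it was -0.22 ± 0.32 (adjusted p 0.691). Atf4 itself did not pass in either set, at -0.37 ± 0.16 (adjusted p 0.119) in saline mice and -0.34 ± 0.12 (adjusted p 0.0684) in ATG mice. With median ratio scaling Atf4 passed in both, at -0.57 and -0.42.

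**Figure D5:**
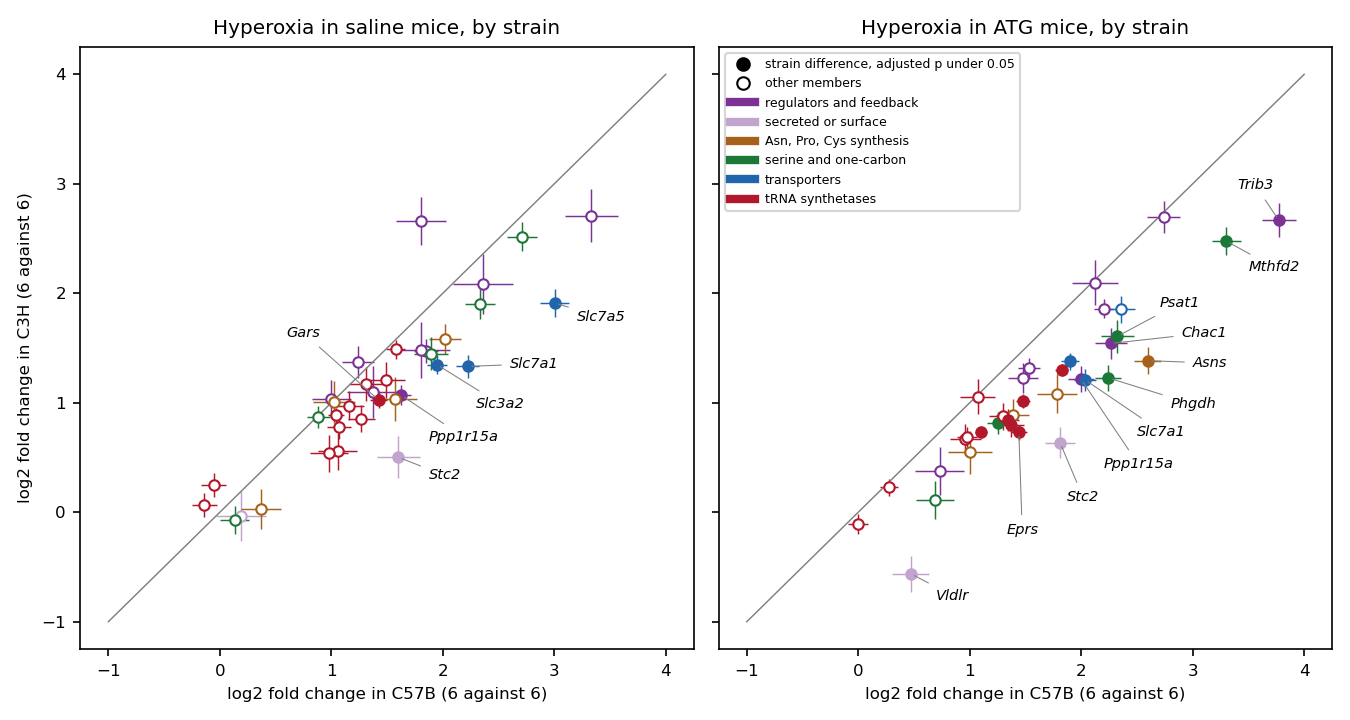
Log2 fold change of hyperoxia in C57B (x axis) and in C3H (y axis), 6 lungs against 6 in each, for saline mice (left) and ATG mice (right). Bars are standard errors, the grey line marks equal change, colours give the role and filled points have an adjusted p under 0.05 for the strain difference. All filled points lie under the line, 6 on the left and 18 on the right.

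Cell markers differed between the strains in the same comparisons. Their background was 8.71% of all genes higher in C3H and 2.81% lower in saline mice. In ATG mice it was 8.27% higher and 5.04% lower. All 3 club markers had a positive strain difference that passed in saline mice and in ATG mice, with summed medians in saline mice of 98357 and 32221 FPKM in C3H and 111264 and 13575 in C57B. All 5 neutrophil markers passed in the ATG mice, with a median difference of 2.99: their sum had a median of 143 in room air and 753 in hyperoxia in C3H, and of 923 and 385 in C57B. The ranges of that sum were wide, from 157 to 2882 in hyperoxic ATG C3H and from 222 to 3620 in room air ATG C57B. No neutrophil marker passed in the saline mice. Cycling cell markers passed as higher in 1 of 5 in saline mice and 3 of 5 in ATG mice, and alveolar type 2 markers in 1 of 4 and 2 of 4. In the ATG mice 2 of 5 macrophage markers passed as lower, the direction of the members, as did 1 of 3 alveolar type 1, 1 of 3 endothelial and 1 of 3 fibroblast markers, while in saline mice no marker passed as lower. The summed macrophage markers had medians of 251 in room air and 279 in hyperoxia in ATG C3H (highest 298 and 658), and of 561 and 1257 in ATG C57B (lowest 282 and 739). The part of these shifts in the members' strain differences was not tested.

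In saline mice the test of a sex difference in the rise passed for no member when all 24 were fitted. For the sex difference of hyperoxia in saline mice, 0 members passed in limma and 6 had an unadjusted p under 0.05, of which 5 were higher in males, a share near that of all genes, where 2231 of 16321 were higher and 733 lower at that level. By adjusted p, 6 genes passed among all genes (0.0368%, with 0.0306% higher and 0.00613% lower). The smallest adjusted p of a member was 0.186, for Slc3a2, with a difference of 0.34 and an interval of 0.10 to 0.59. Males and females taken alone each called 30 members higher. Leaving out C3HM SAL RA mouse 2 brought 1 member past the threshold, Yars at 0.60 (adjusted p 0.0264), and all genes called to 1270. That fit kept only mice 1 and 3 of the group, which correlated least with the other lungs of their injection and air.

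ATG alone did not move the members past the threshold in room air. Of 35 members tested in 24 room air mice, 0 passed and 5 had an unadjusted p under 0.05 (1077 of all 16228 genes), and 0.0185% of all genes passed (0.0123% higher and 0.00616% lower). Ddit4 was closest, with medians of 13.3 FPKM in saline and 21.1 in ATG mice and a difference of 0.51 (interval 0.19 to 0.83, adjusted p 0.589). The strain difference of ATG in room air had 0 members past the threshold and 2 with an unadjusted p under 0.05, and 0 of all genes passed, with 743 at an unadjusted p under 0.05.

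In hyperoxia, Atf4 was higher in ATG mice than in saline mice. The hyperoxic medians were 319 FPKM in saline and 425 in ATG mice, with overlapping ranges of 273 to 458 and 328 to 555, and the log2 fold change was 0.28 ± 0.06 (adjusted p 0.0110). Of all genes 3.89% were higher and 1.58% lower, so 1 of 36 members called higher is a share near that background. With Atf4, 11 of 36 members were higher at an unadjusted p under 0.05 and 0 lower, where 2557 of all 15860 genes were higher and 915 lower at that level. Those short of the adjusted threshold included Pycr1 (0.42, adjusted p 0.0783), Shmt2 (0.19, adjusted p 0.0851) and Ddit3 (0.35, adjusted p 0.0915). Within a strain Atf4 did not pass, at 0.32 ± 0.08 in C57B (adjusted p 0.0628) and 0.24 ± 0.08 in C3H (adjusted p 0.123). In the comparison of all hyperoxic mice 3 of 5 macrophage and 1 of 3 endothelial markers were lower and 1 of 5 cycling cell markers was higher with ATG, with summed macrophage medians of 891 (356 to 2217) in saline and 698 (154 to 1797) in ATG mice. The part of these shifts was not tested. The test of whether the effect of ATG differed between hyperoxia and room air gave the same counts for those 3 marker lists. Among the 36 members it passed for Atf4 alone (2.78%), at 0.37 ± 0.10 (adjusted p 0.0336). Of all genes 1.56% passed as higher and 1.21% as lower (2.77% in all), a share near that of the members. That call was lost with median ratio scaling, without the filter, in several fits that left out 1 mouse, and without C3HM SAL RA mice 1 and 3, with adjusted p-values of 0.0145 to 0.0857 over all alternatives.

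The strains were then compared for ATG within hyperoxia, a comparison chosen after the values were seen. No member passed in limma, 9 of 36 had an unadjusted p under 0.05, all lower in C3H, where 978 of all 15860 genes were higher and 1132 lower at that level, and 66 of all genes passed (0.416%, with 0.328% higher and 0.0883% lower). Phgdh was closest, with hyperoxic medians of 19.4 FPKM in saline and 27.8 in ATG C57B and of 13.2 and 10.8 in C3H, a difference of -0.58 (interval -0.93 to -0.23, adjusted p 0.168).

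At baseline, in the 12 saline room air mice, 2 members were higher and 2 lower in C3H than in C57B, where 3.92% of all genes were higher and 7.87% lower. In either direction 11.4% of the members and 11.8% of all genes were called, so the members' share was near that background. The higher ones were Ppp1r15a (0.39 ± 0.10, adjusted p 0.0247) and Stc2 (0.57 ± 0.17, adjusted p 0.0486). The lower ones were Wars (-0.52 ± 0.12, adjusted p 0.0132) and Mthfd2 (-0.46 ± 0.13, adjusted p 0.0417), the latter with medians of 2.64 and 4.12 FPKM. Leaving out C3HM SAL RA mice 1 and 3 left 0 higher and 1 lower, and every fit that left out 1 mouse kept at most 1 higher. All 5 neutrophil markers and 3 of 4 alveolar type 2 markers were lower in C3H at baseline, 2 of 3 alveolar type 1 markers were higher, and of 5 macrophage markers 2 were higher and 1 lower. Their part was not tested. Between the sexes 0 members passed at baseline, with 9 of 35 at an unadjusted p under 0.05 (3617 of all 15546 genes, a share near that of the members) and 0.669% of all genes called (0.238% higher and 0.431% lower). Nupr1 was closest, at 0.74 higher in males (interval 0.43 to 1.06, adjusted p 0.0625). With C3HM SAL RA mouse 2 left out 2 members were higher and 4 lower in males, while the genes called over the whole table went from 104 to 3640. Only mice 1 and 3 of the group remained in that fit. One fit of all 48 mice called 2 members higher and 5 lower.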

How the data were processed

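Whole-lung RNA of 48 mice was sequenced. The authors aligned the reads with GSNAP to mm10, and the submitters' processing notes also name SAMtools and Cufflinks. The deposited table holds 1 FPKM value per gene and mouse. Counts, the annotation release and the use of strand are not given in the sources used here, so depth is unknown and precision rests on the spread between mice. Log2(FPKM + 1) was fitted in R 4.3.3 with limma 3.58.1 (group means, eBayes with a mean trend), keeping genes that reached 1 FPKM in 3 or more of the fitted mice. Each fit held only the mice of its comparison. P-values were adjusted by Benjamini-Hochberg over all genes tested, with a threshold of 0.05, and 95% intervals are 1.96 SE on either side. The added 1 understates fold changes of low genes. Akap5, with failed values in 7 lungs, was left out. Coordinates came from GENCODE M21 and promoters from RefSeq, which gave none for 7 members. All members were named, and from other lists up to 3 of the largest changes in each direction. Members and lists were chosen with earlier results of these data known. The fit was tested on simulated data. Alternatives were pseudocount, filter, scaling, trend, 1 fit of all mice, and leaving mice out.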

Additional observations from a re-analysis of the deposited data

Results flagged for a closer look

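In the saline mice the rise in hyperoxia differed between C3H and C57B by a test of the difference itself for 6 members. Of all genes, 2.81% were lower in C3H by that test and 8.71% higher. The differences, as log2 fold change in C3H minus that in C57B, were -0.55 for Ppp1r15a, -1.10 for Stc2, -0.89 for Slc7a1, -1.09 for Slc7a5, -0.60 for Slc3a2 and -0.40 for Gars.

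In the ATG mice the same test passed for 18 members, where 5.04% of all genes were lower in C3H and 8.27% higher. Among regulators and secreted or surface targets the differences were -1.10 for Trib3, -0.78 for Ppp1r15a, -0.72 for Chac1, -1.03 for Vldlr and -1.17 for Stc2. Among synthesis and transport genes they were -1.21 for Asns, -1.02 for Phgdh, -0.72 for Psat1, -0.44 for Shmt2, -0.82 for Mthfd2, -0.82 for Slc7a1 and -0.52 for Slc3a2, where the calls of Psat1 and Shmt2 were lost when any of several single mice was left out. Among synthetases they were -0.57 for Aars, -0.46 for Gars, -0.37 for Nars, -0.53 for Sars, -0.71 for Eprs and -0.50 for Yars.

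The effect of ATG on Atf4 differed between hyperoxia and room air, with a difference of 0.37 on the log2 scale. It was the only member called of 36 (2.78%), a share near that of all genes (2.77%). The call was lost with median ratio scaling, without the filter and in several fits that left out 1 mouse. Groups held 3 mice, and no mouse was left out of the main fits as an outlier. C3HM SAL RA mice 1 and 3, which correlated least with the other lungs of their injection and air, were left out together only as an alternative.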

How the results depend on the processing

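The calls of hyperoxia kept their size: leaving out 1 mouse at a time gave 30 to 31 members higher in saline mice and 33 in ATG mice, and for the strain difference 6 to 7 members lower in saline mice and 16 to 20 in ATG mice. Wars was the 1 member called lower in ATG mice with median ratio scaling and the 1 in each of saline and ATG mice with quantile normalization. Median ratio scaling removed a shift of all genes of 0.15 in the strain difference of saline mice and called 12 members lower there. The share of all genes called lower there with that scaling was not computed. The same scaling called 2 genes in all for the sex difference, whose shift was 0.14, and 0 members for ATG by air. At baseline, 1 member was lower in C3H with median ratio scaling, with quantile normalization and without the filter, and 1 was higher with a pseudocount of 0.1. Without the filter, all genes called were 5 for ATG in room air, 2 for its strain difference, 313 for ATG by air (0 members) and 40 for sex at baseline. With 1 fit of all 48 mice, 1 member (Nupr1) was higher for the strain difference in saline mice, with 2994 genes in all. That fit called 306 genes for the sex difference, 2982 for strain at baseline, 234 for the strain difference of ATG in hyperoxia and, for sex at baseline, 2 members higher, 5 lower and 1915 genes. Leaving out C3HM SAL RA mice 1 and 3, chosen after seeing the data, gave 5 genes for ATG in room air, 0 members for ATG by air, 0 higher and 1 lower for strain at baseline, and 30 genes for sex at baseline.

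Leaving out 1 mouse at a time gave, for the strain difference in saline mice, 0 to 1 members higher and 1400 to 3242 genes. The sex difference gave 0 to 1 members higher and 2 to 1270 genes. ATG in room air gave 3 to 32 genes and its strain difference 0 to 17. ATG by air gave 0 to 2 members higher, 0 to 1 lower and 243 to 1093 genes. Strain at baseline gave 0 to 1 higher, 1 to 3 lower and 1306 to 4021 genes, and sex at baseline 0 to 2 higher, 0 to 4 lower and 20 to 3640 genes. ATG in hyperoxia gave 1 to 2 members higher and 443 to 1096 genes, and its strain difference 37 to 302 genes. Leaving out C3HM SAL RA mouse 2 gave the highest gene counts for the strain and sex differences, both baselines, ATG in room air and its strain difference, and ATG by air. Without mouse 2 the group held only mice 1 and 3, which correlated least with the other lungs of their injection and air. The cause of these counts was not tested. In the ATG mice, the strain differences of Psat1 and Shmt2 were lost in 9 and 19 alternatives, where the 35 members tested had 1050 alternatives in all, the same number for each. No paired analysis was possible because the mice were numbered individually. Depth is unknown, so members below the filter could not be judged.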
